A study of Danio rerio with 24 samples.

Results

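The data compared here are the whole-brain transcriptomes of adult zebrafish from 2 homozygous *nrxn3* double-mutant lines, which carry either complete or transmembrane deletions of the same pair of genes. The *nrxn3* full line (genotype nrxn3a_full:nrxn3b_full) lacks the whole genomic locus of *nrxn3a* and of *nrxn3b*, introns included. The *nrxn3* tmr line (genotype nrxn3a_tmr:nrxn3b_tmr) lacks only the transmembrane region, which lies in the last exon of each gene. Both alleles were made with CRISPR/Cas9 and, per the methods, all lines and wt are in the AB background. Each line gave 3 libraries, so that 6 of the 24 libraries of the series enter the comparison, and wt does not. Levels in the 3 wt libraries and in the other mutant lines of the series, *nrxn2* full and *nrxn2* tmr among them, stand beside the results as background. The labels number the libraries 2, 3 and 4 in *nrxn3* full and 3, 4 and 5 in *nrxn3* tmr. How many brains went into a library and the sex of the fish are not given, each genotype is represented by 1 line, and the homozygous fish came from at most 2 inbred homozygous generations in a row.

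Neurexins are presynaptic adhesion proteins that reach across the synaptic cleft to neuroligins, cerebellins and other partners and so help to set the properties of a synapse. Each gene gives a long α and a short β isoform that share the transmembrane and cytoplasmic parts. A neurexin gene without its transmembrane part can still be transcribed, whereas deletion of the locus is meant to remove the transcript itself. The paper proposes that tmr mutants may make a protein no longer held in the membrane, and calls this speculative. The comparison of the lines asks how the brain transcriptome after deletion of the *nrxn3* loci differs from that after deletion of the transmembrane region alone.

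Levels are given as normalised read counts, which are raw counts divided by the size factor of the library. The test covered the 23641 of 37241 genes that reached 10 counts in 3 or more of the 24 libraries. Differences are log2 values of *nrxn3* full minus *nrxn3* tmr with their standard error (SE), and called genes are those with an adjusted p under 0.05 in edgeR's quasi-likelihood test. Total counts ran from 30540696 to 35426724 in *nrxn3* full and from 31026553 to 33999112 in *nrxn3* tmr. The p-values rest on the spread between libraries of a genotype, which may be technical in part. Per the methods, brains of all lines were dissected over 3 days, with the eyes removed first.

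Both targeted genes were lower in *nrxn3* full, *nrxn3b* to near 0 and *nrxn3a* only in part. *nrxn3b* (ENSDARG00000062693) had 3.91, 0 and 1.08 normalised counts in the *nrxn3* full libraries and 4016, 4450 and 4256 in the *nrxn3* tmr libraries. These are 5 reads against 12204, or 0.0404% of the tmr level (exact Poisson 95% interval 0.0131% to 0.0944%, counting error only), and the log2 difference was -11.18 (SE 0.32, adjusted p = 6.6e-14). *nrxn3a* (ENSDARG00000043746) was reduced but not absent, although its whole locus is described as deleted, at 1296, 1498 and 1518 in *nrxn3* full against 14574, 14081 and 14441 in *nrxn3* tmr. The *nrxn3a* level left in *nrxn3* full was 9.98% of that in *nrxn3* tmr, with a log2 difference of -3.32 (SE 0.08, adjusted p = 3.0e-15). In wt, *nrxn3a* stood at 12707 ± 947 and *nrxn3b* at 3894 ± 489 (SD, n = 3). Counts per gene add up all isoforms and all exons, so a transcript without its transmembrane part counts like a complete one.

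**Figure D1:**
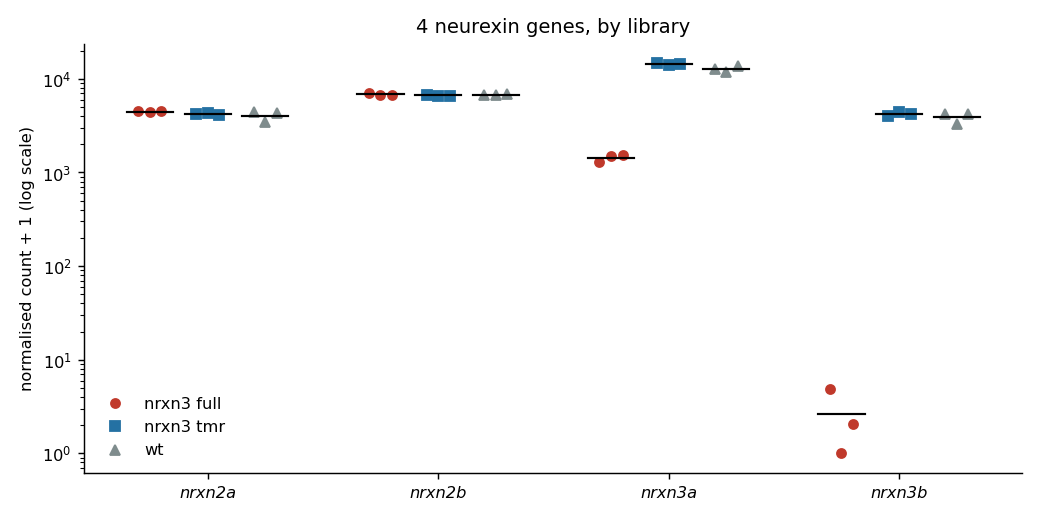
Normalised count of 4 neurexin genes in each library (y axis, count + 1 on a log scale) for *nrxn3* full, *nrxn3* tmr and wt, with a bar at the mean of each 3 libraries. In *nrxn3* full *nrxn3b* is near 0 and *nrxn3a* at 9.98% of the tmr level, and *nrxn2a* and *nrxn2b* lie close together in the lines.

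*nrxn2a* and *nrxn2b*, which both lines leave intact, did not pass the test between the lines. *nrxn2a* had groups that did not overlap, with 4386 to 4514 normalised counts in *nrxn3* full and 4151 to 4279 in *nrxn3* tmr, a log2 difference of 0.09 (SE 0.07, adjusted p = 0.64). *nrxn2b* had 6777 to 7089 and 6526 to 6792, which overlap, and a log2 difference of 0.05 (SE 0.06, adjusted p = 0.79). Groups that do not overlap were common, at 24.5% of all genes tested.

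Across the transcriptome, 1127 genes (4.77%) were called between the lines. Of these, 548 (2.32% of the genes tested) were higher in *nrxn3* full and 579 (2.45%) were lower, and the median log2 difference of all genes tested was -0.00259. In 1081 of the called genes the 3 full libraries did not overlap the 3 tmr libraries. Genes without a symbol were called in 7.56% of cases and genes with one in 4.30%. The count depended on the libraries at hand. It was 655 without *nrxn3* full replicate 2, 709 without *nrxn3* full replicate 3 and 751 without *nrxn3* full replicate 4, and 450 genes were called with all libraries and also without each of the 6 in turn.

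**Figure D2:**
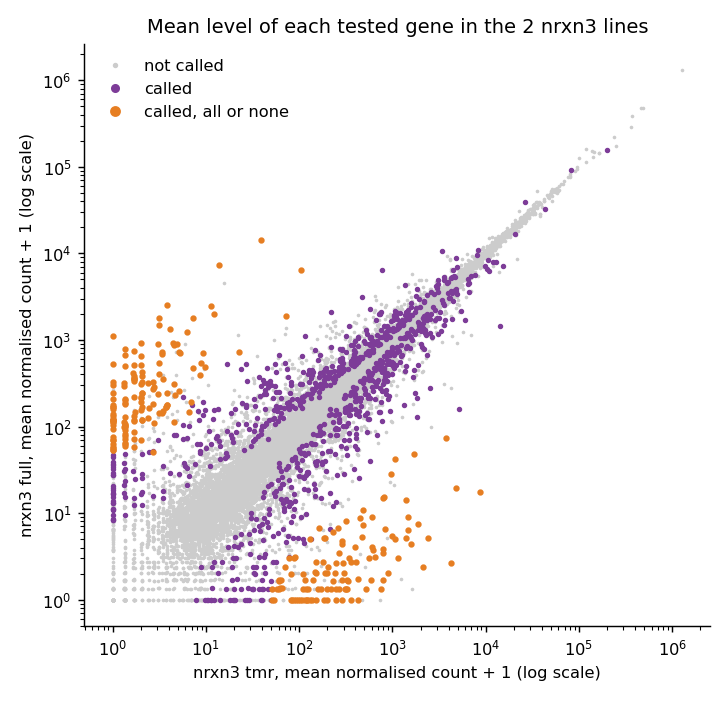
Mean normalised count of each of the 23641 genes tested in *nrxn3* tmr (x axis) and *nrxn3* full (y axis), both as count + 1 on a log scale, with called genes in colour. The 253 called genes that are all or none lie towards the axes, away from the diagonal, and 3 of them are also graded.

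The largest differences were all or none. In 352 genes every library of one line had under 5% of the mean of the other line, with that mean at 50 or more. Of these, 165 were off in *nrxn3* full and 187 were off in *nrxn3* tmr, and 253 were called, which is 22.4% of all calls. Many were off elsewhere too. In 114 of the genes off in *nrxn3* full and 131 of those off in *nrxn3* tmr, all 3 libraries of at least 1 other genotype were off as well. Wt was off at 30 of the 165 and 40 of the 187, *nrxn2* full at 44 and 42 and *nrxn2* tmr at 27 and 53. No other library of the series was off in 9 of the genes off in *nrxn3* full, *nrxn3b* among them, and in 4 of those off in *nrxn3* tmr.

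Among the genes nearly silent in *nrxn3* full, JUNB, CCS and NTN4 kept their call without each library in turn. JUNB (ENSDARG00000104773), a transcription factor of the AP-1 family that responds to neuronal activity, had 3.91, 6.2 and 2.16 normalised counts in *nrxn3* full and 2773, 2137 and 2248 in *nrxn3* tmr, against 2372 ± 872 in wt (SD, n = 3). Its log2 difference was -9.14 (SE 0.55, adjusted p = 5.7e-09), and the *nrxn3* full level was 0.173% of the tmr level (0.0891% to 0.301%). The 18 other libraries ran from 0 to 4016 for JUNB, so its silence was not particular to *nrxn3* full. A second identifier with the symbol JUNB (ENSDARG00000074378) had means of 712 and 670, with a log2 difference of 0.09 (adjusted p = 0.93). NTN4, a secreted netrin, had 0.976, 0 and 0 in *nrxn3* full and 1047, 264 and 250 in *nrxn3* tmr (log2 difference -10.13, SE 0.81, adjusted p = 1.7e-07). In the 18 other libraries NTN4 ran from 243 to 1244, so that *nrxn3* full alone was without it. CTSO, a lysosomal cysteine protease, had 1 read in *nrxn3* full, levels of 193, 383 and 173 in *nrxn3* tmr, and no read in wt. MOSPD1 had no read in *nrxn3* full and was at least 97.8-fold higher in *nrxn3* tmr, taking 3 counts over the 3 libraries as the floor. In wt MOSPD1 was uneven at 194, 102 and 0, and the 18 other libraries, wt among them, ran from 0 to 205.

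Genes nearly silent in *nrxn3* tmr included enzymes of metabolism, a channel subunit and a ribosomal protein. TPI1 (ENSDARG00000040988), the glycolytic enzyme triosephosphate isomerase, had 6494, 8834 and 6424 normalised counts in *nrxn3* full and 15.2, 12.6 and 11 in *nrxn3* tmr, with 8247 ± 1765 in wt (SD, n = 3). This log2 difference of 9.12 (SE 2.15, adjusted p = 0.019) lost its call without *nrxn3* tmr replicate 3, 4 or 5, although the groups are far apart. The second identifier named TPI1 (ENSDARG00000025012) stood at 1431 and 1561, so that the sum of both was 8682 in *nrxn3* full and 1574 in *nrxn3* tmr. *kcnip1b*, which codes for an auxiliary subunit of Kv4 potassium channels, had 1724, 1500 and 1273 in *nrxn3* full and 3.26, 2.1 and 0.998 in *nrxn3* tmr (log2 difference 9.40, SE 1.86, adjusted p = 0.0054). The wt level of *kcnip1b* was 1410 ± 154 (SD, n = 3), near that of *nrxn3* full.

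The same pattern was seen for further genes off in *nrxn3* tmr. ATPAF2, an assembly factor of the mitochondrial ATP synthase, had 573, 283 and 304 normalised counts in *nrxn3* full and 1.09, 0 and 0.998 in *nrxn3* tmr (log2 difference 8.89, SE 0.64, adjusted p = 1.5e-07). ATPAF2 kept its call without each library in turn. ACADL, an acyl-CoA dehydrogenase of fatty acid oxidation, and *eif2ak1*, the haem-regulated kinase of the translation factor eIF2α, had no read in *nrxn3* tmr and were at least 308-fold and at least 115-fold higher in *nrxn3* full. *rpl32* had 1907, 1670 and 1784 in *nrxn3* full and 6.52, 0 and 0 in *nrxn3* tmr (log2 difference 9.65, SE 0.66, adjusted p = 5.1e-07). Here wt resembled *nrxn3* tmr, at 0.339 ± 0.587 normalised counts (SD, n = 3).

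For 3 symbols, 2 identifiers were called in opposite directions. Of 1437 symbols with 2 identifiers among the genes tested, 121 had at least 1 called and 4 had both called, 3 of them in opposite directions. Over all genes with a symbol, 873 of 20281 were called (4.30%). Whether symbols with 2 identifiers were called more often than others was not tested. CCS, the copper chaperone of superoxide dismutase, had 957, 929 and 892 normalised counts at ENSDARG00000092003 in *nrxn3* full and 1.09, 0 and 2.00 in *nrxn3* tmr. At ENSDARG00000116246 it had no read in *nrxn3* full and 193, 179 and 179 in *nrxn3* tmr. The sums of the 2 identifiers were 926 in *nrxn3* full and 185 in *nrxn3* tmr. HAPLN1, a link protein of the extracellular matrix around neurons, had log2 differences of 2.2 (adjusted p = 5.9e-04) and -4.92 (adjusted p = 9.0e-04) at its identifiers, and sums of 254 and 110. EMC4, a subunit of a membrane protein insertion complex of the endoplasmic reticulum, had -0.56 (adjusted p = 0.0014) and 3.09 (adjusted p = 0.013), and sums of 783 and 693. Reads that fit more than 1 near-identical copy can be lost or misplaced in the counting, so the values of single copies and their sums are uncertain.

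Called genes were most frequent on chromosome 17, which carries *nrxn3a*. Gene order and chromosome were read from RefSeq's annotation of another assembly, GRCz12tu, which places 69.7% of the genes tested, so that the shares hold for placed genes only. Places were matched by symbol, so identifiers that share a symbol were given the same place. Some of these may lie elsewhere, which leaves the shares, windows and distances in genes uncertain to that extent. Of 610 genes placed on chromosome 17, *nrxn3a* left out, 78 were called (12.8%), 25 higher and 53 lower in *nrxn3* full. This was the highest share of the 25 chromosomes, of which chromosome 18 came next with 7.17%. On the 23 chromosomes that carry neither target, 568 of 15135 genes were called (3.75%). On chromosome 20, the chromosome of *nrxn3b*, 33 of 739 were called (4.47%). Without 1 library in turn, the share on chromosome 17 ran from 7.70% to 10.5%, and that on the other 23 ran from 2.16% to 2.94%. The count of called genes on chromosome 17 was 47 without *nrxn3* full replicate 2 and 50 without *nrxn3* full replicate 3.

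**Figure D3:**
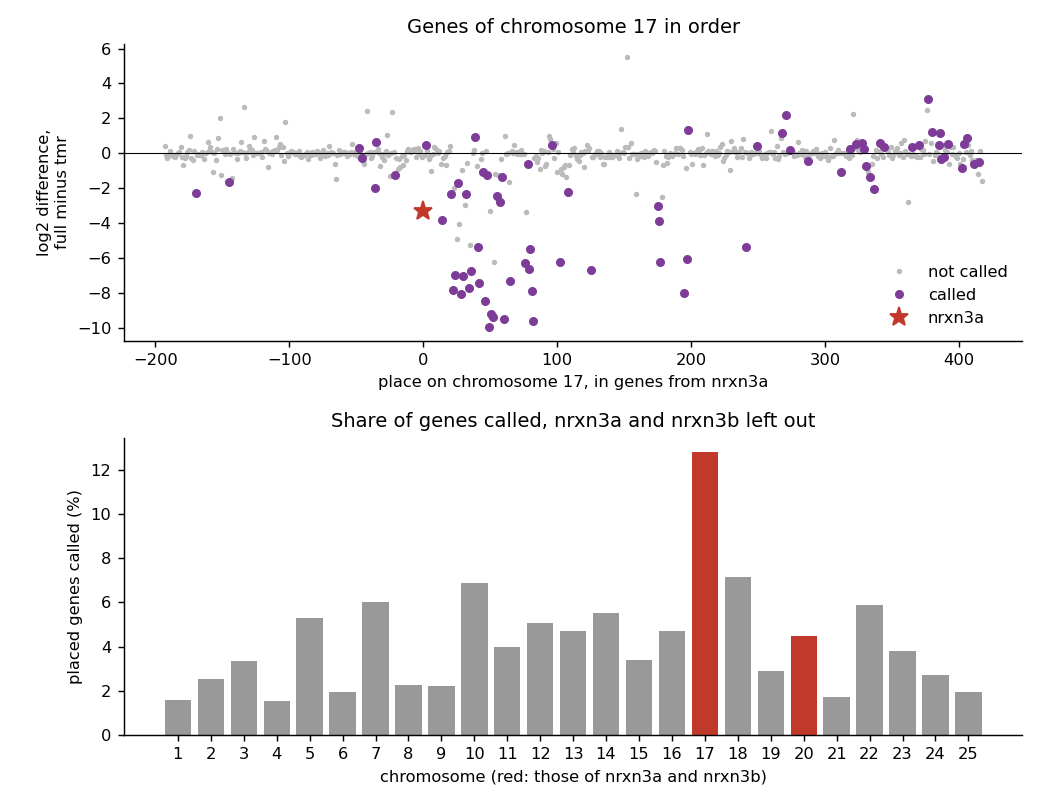
Upper panel: log2 difference (*nrxn3* full minus *nrxn3* tmr) of each placed gene of chromosome 17 against its place in genes from *nrxn3a*, called genes as large points. Lower panel: percent of placed genes called on each chromosome, highest on chromosome 17 at 12.8%, with many strongly lower genes on one side of *nrxn3a* in the upper panel.

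The calls on chromosome 17 were not spread evenly. In windows of 50 consecutive genes, *nrxn3a* is gene 194 of 611 and lies in the fourth window, where 4 of 49 genes were called (8.16%). The next window, genes 201 to 250, held 20 called genes of 50, 19 of them lower in *nrxn3* full, and the one after that held 12 of 50, 11 of them lower. The first of these has the highest share of the 316 windows of all chromosomes, whose median share was 2.00%, and the second shares its value with windows of chromosomes 5 and 7. On the far end of chromosome 17, genes 501 to 550 and 551 to 611 held 10 and 14 called genes, with 6 and 9 of them higher in *nrxn3* full. The windows were drawn after the share on chromosome 17 had been seen.

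Beyond *nrxn3a*, genes silent in *nrxn3* full lay interspersed with genes that were not. On the 23 chromosomes that carry neither target, 82 of 568 called genes were all or none, 42 off in *nrxn3* full and 40 off in *nrxn3* tmr. Of the 78 called genes of chromosome 17, 23 were all or none, and all 23 were off in *nrxn3* full and none in *nrxn3* tmr. They lie 24 to 241 placed genes from *nrxn3a*, all on the same side. They include SMNDC1, which codes for a splicing factor, with 7.81, 5.17 and 3.25 normalised counts in *nrxn3* full and 1476, 1482 and 1465 in *nrxn3* tmr (log2 difference -8.04, SE 1.58, adjusted p = 0.0052). IVD, an enzyme of leucine breakdown, had 7.81, 1.03 and 3.25 against 877, 1439 and 875 (log2 difference -7.98, SE 0.43, adjusted p = 8.3e-10). The secreted protease HTRA1 (ENSDARG00000032831) and *fgfbp3*, which binds fibroblast growth factors, had 2 reads each in *nrxn3* full and means of 289 and 581 in *nrxn3* tmr. Wt means of HTRA1 and *fgfbp3* were 305 and 722. A second identifier named HTRA1 (ENSDARG00000014907) had means of 1298 and 1165 in the lines (log2 difference 0.16, adjusted p = 0.74). Both HTRA1 identifiers were given the same place by their symbol, so which of them lies on chromosome 17 is not known.

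These 23 genes were also off in some libraries with intact *nrxn3* genes. Over the 18 other libraries of the series, 2 libraries of 1 genotype were under 5% of the *nrxn3* tmr mean at 21 and 23 of these genes, 1 more library at 5, and the other 15 at 0 or 1. Each wt library was off at 1 of them, and no library of *nrxn2* full or *nrxn2* tmr was off at any. The deletion and the other ways in which the lines differ cannot be told apart in this design, since each genotype is 1 line.

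Other genes of chromosome 17 were graded. DICER1, the RNase that makes mature miRNAs, lies 14 placed genes from *nrxn3a* and had 127, 130 and 122 normalised counts in *nrxn3* full and 1810, 1809 and 1826 in *nrxn3* tmr. Its log2 difference was -3.84 (SE 0.62, adjusted p = 0.0010), and the 18 other libraries ran from 137 to 1998. On the other side of *nrxn3a*, ERO1A, an oxidase of the endoplasmic reticulum, had 189, 172 and 205 against 818, 700 and 736 (log2 difference -1.99, SE 0.23, adjusted p = 2.5e-05). MARCKS (ENSDARG00000004049), a membrane-bound regulator of actin, had 157, 213 and 213 against 480, 466 and 413 (log2 difference -1.22, SE 0.16, adjusted p = 8.5e-05). All 3 libraries of *nrxn3* full lay below the range of the other 18 libraries for this identifier, which was 359 to 757. Most MARCKS counts fell to a second identifier (ENSDARG00000008803), with means of 12087 and 14311 (log2 difference -0.24, adjusted p = 0.21). Both MARCKS identifiers were given the same place by their symbol, so which of them lies there is not known. Near the far end DLST, a subunit of the 2-oxoglutarate dehydrogenase complex, had 1836, 1707 and 1814 against 3103, 3035 and 3354 (log2 difference -0.83, adjusted p = 2.1e-04).

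Among the 20 placed genes on either side of each target, 2 of 40 were called at *nrxn3a* and 6 of 40 at *nrxn3b*, against 4.13% of all placed genes. The first of these counts is near that share. TSHR, the receptor for thyroid-stimulating hormone, lies 2 placed genes from *nrxn3b* and showed the largest difference among the neighbours of *nrxn3b*. It had 564, 547 and 456 normalised counts in *nrxn3* full and 52.1, 56.6 and 53.9 in *nrxn3* tmr. The 18 other libraries ran from 20.7 to 83.7 and wt stood at 23.8 ± 4.82 (SD, n = 3), so that *nrxn3* full was above every other library of the series. The log2 difference was 3.26 (SE 0.30, adjusted p = 8.8e-07), and the call was kept without each library. *dsc2l*, a desmocollin, was lower in *nrxn3* full at 285, 272 and 294 against 649, 576 and 567 (log2 difference -1.07, SE 0.21, adjusted p = 0.0048).

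The other calls beside the targets rested on some of the libraries. *ccnk* and *cyp46a1.3* were higher in *nrxn3* full (log2 differences 0.48 and 1.75), as was ALKBH1 beside *nrxn3a* (0.46). IGFBP1 and *usp24* were lower (-0.83 and -0.74). Each of these 5 lost its call without at least 2 of the 6 libraries, and the count over both targets fell from 8 to between 3 and 5 without *nrxn3* full replicate 2, 3 or 4 or *nrxn3* tmr replicate 3 or 5. The all-or-none genes of chromosome 17 begin 24 placed genes from *nrxn3a*, outside this count, and with 40 genes on either side 25 genes were called over both targets.

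The graded genes, with a mean of at least 50 normalised counts in both lines, made up 566 of the calls, or 3.44% of the 16437 graded genes tested. Of these, 271 were higher and 295 lower in *nrxn3* full. The graded calls include 3 that are also all or none, and 311 calls were neither graded nor all or none. The median absolute log2 difference of the graded calls was 0.78 and 357 of the 566 differed by less than 2-fold. By the size of the difference 92 were at least 2-fold higher and 117 at least 2-fold lower. The count was 310 without *nrxn3* full replicate 2, 341 without *nrxn3* full replicate 3 and 350 without *nrxn3* tmr replicate 4.

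The largest graded fall among genes with a symbol was that of *si:ch211-266c8.1*, at 73.2, 56.8 and 88.8 normalised counts in *nrxn3* full and 4457, 2393 and 4497 in *nrxn3* tmr (log2 difference -5.69, SE 0.40, adjusted p = 2.8e-08). DICER1 followed among those that kept their call without each library. *trip6*, a LIM domain protein of focal adhesions, had 60.5, 58.9 and 56.3 normalised counts in *nrxn3* full and 339, 457 and 382 in *nrxn3* tmr (log2 difference -2.74, SE 0.19, adjusted p = 1.6e-08), and wt stood at 401 ± 6.92 (SD, n = 3). CCSER2 had 291, 235 and 114 against 1997, 1757 and 1675 (log2 difference -3.08, SE 0.25, adjusted p = 2.3e-07). CTCF, the insulator protein that shapes chromatin loops, had 241, 227 and 258 against 1289, 2723 and 1275 at ENSDARG00000056621. For CTCF the groups were far apart, but the call (log2 difference -2.86, SE 0.70, adjusted p = 0.023) ended without *nrxn3* tmr replicate 4 or without any *nrxn3* full replicate. BSDC1 was lower in *nrxn3* full by -3.21 on the log2 scale (SE 0.68, adjusted p = 0.0092), with a wt level of 95.5 ± 76.8 (SD, n = 3) below both lines.

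Of the largest graded rises, *rbm14b*, SETD1B, ATOSA, *ahsg1* and SLC20A2 kept their call without each library. *rbm14b*, which codes for an RNA-binding protein, had 6502, 6380 and 6214 normalised counts in *nrxn3* full and 850, 761 and 687 in *nrxn3* tmr, with 3189 ± 104 in wt (SD, n = 3) between them (log2 difference 3.05, SE 0.27, adjusted p = 8.4e-07). SETD1B, a methyltransferase of histone H3 lysine 4, had 596, 518 and 511 against 57.6, 64.0 and 84.9 (log2 difference 2.97, SE 0.59, adjusted p = 0.0055). ATOSA had 817, 857 and 598 against 159, 105 and 172 (log2 difference 2.38, SE 0.32, adjusted p = 1.6e-04). The plasma protein gene *ahsg1* had 697, 722 and 541 against 116, 112 and 87.9, and wt stood near *nrxn3* tmr at 93.1 ± 42.1. SLC20A2, a phosphate transporter, was uneven within *nrxn3* full at 807, 4261 and 4269, all above the 424 to 509 of *nrxn3* tmr (log2 difference 2.71, SE 0.58, adjusted p = 0.010).

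Highly counted genes were among the all-or-none calls, such as *leng8* with means of 14429 in *nrxn3* full and 37.8 in *nrxn3* tmr, and among the small ones. WDR11, a scaffold of endosome-to-Golgi transport, had 9127, 8804 and 8483 normalised counts in *nrxn3* full and 4970, 4736 and 4672 in *nrxn3* tmr (log2 difference 0.88, SE 0.13, adjusted p = 2.8e-04), with wt at 8950 ± 279 (SD, n = 3). The polyubiquitin gene *ubc* had 30451, 32881 and 33476 against 43727, 38441 and 46956 (log2 difference -0.42, SE 0.08, adjusted p = 0.0042). The nuclear RNA *malat1* had 152191, 162659 and 155924 against 198509, 193414 and 210875 (log2 difference -0.36, SE 0.08, adjusted p = 0.016). For *malat1* the tmr libraries lay above the 134951 to 189312 of the other 18, and the call ended without *nrxn3* full replicate 2 or 4 or *nrxn3* tmr replicate 5.

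**Figure D4:**
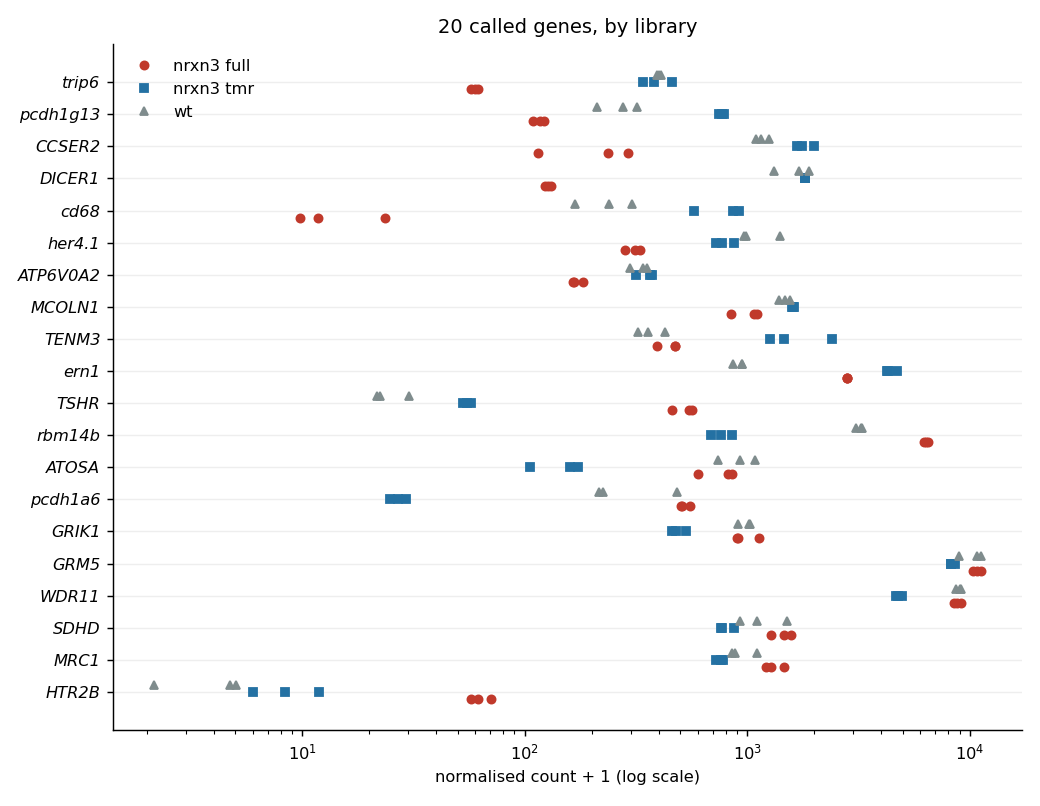
Normalised count + 1 (x axis, log scale) of 20 called genes in each library of *nrxn3* full, *nrxn3* tmr and wt, 10 lower in *nrxn3* full above and 10 higher below. The full and tmr libraries do not overlap for any of them, while wt lies with *nrxn3* tmr for some (ATP6V0A2, MCOLN1) and with *nrxn3* full for others (GRIK1, WDR11). Genes named for the largest differences were required to have groups that do not overlap.

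Over 35 lists other than the neurexins, 63 of 1448 genes tested were called (4.35%), near the 4.77% of all genes. As a base for the list counts below, 3870 of all 23641 genes tested had an unadjusted p under 0.05. The DESeq2 Wald test called 1828 of all genes. Of 45 neurexin partners, 2 were called and both were higher in *nrxn3* full, with a list median of 0.04 on the log2 scale. They were *nlgn2b*, a neuroligin of inhibitory synapses, at 138, 138 and 102 against 3.26, 0 and 0.998, and CBLN4, a secreted cerebellin, at 409, 360 and 525 against 204, 256 and 239. The *nlgn2b* call (log2 difference 6.37, SE 1.42, adjusted p = 0.013) ended without *nrxn3* tmr replicate 4 or 5, and *nlgn2a* had means of 4988 and 4929. The CBLN4 call (log2 difference 0.89, SE 0.23, adjusted p = 0.027) ended without *nrxn3* full replicate 2 or 4 or any *nrxn3* tmr replicate.

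Other adhesion genes gave 1 rise and 1 fall among 60. TENM3 (ENSDARG00000087599), a teneurin that binds latrophilins across the synapse, had 473, 473 and 393 normalised counts in *nrxn3* full and 1259, 2411 and 1457 in *nrxn3* tmr (log2 difference -1.94, SE 0.29, adjusted p = 3.8e-04). Wt, at 368 ± 52.3 (SD, n = 3), was on the side of *nrxn3* full. A second identifier with this symbol, *tenm3* (ENSDARG00000005479), had most of the counts, with means of 12237 and 11448 (log2 difference 0.10, adjusted p = 0.62). The sums of both identifiers overlapped between the lines. IGSF21 (ENSDARG00000056084) had 314, 325 and 281 against 79.3, 72.4 and 148 (log2 difference 1.62, SE 0.36, adjusted p = 0.012), a call that ended without *nrxn3* tmr replicate 3 or 4. The second IGSF21 identifier (ENSDARG00000031049) had means of 5279 and 5011 (log2 difference 0.08, adjusted p = 0.64).

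Of 70 glutamate synapse genes, 3 were higher and 3 lower in *nrxn3* full, with a median of 0.08 on the log2 scale. GRIK1, a kainate receptor subunit, had 1125, 906 and 901 normalised counts in *nrxn3* full and 529, 459 and 476 in *nrxn3* tmr, against 987 ± 65.7 in wt (SD, n = 3). Its log2 difference was 1.00 (SE 0.11, adjusted p = 1.5e-05). GRM5, a metabotropic receptor coupled to calcium release, had 11246, 10811 and 10349 against 8573, 8242 and 8202 (log2 difference 0.37, SE 0.08, adjusted p = 0.0078), and the tmr libraries lay below the 8906 to 11842 of the 18 others. Both calls were kept without each library. Second identifiers named GRIK1 and GRM5 had lower counts (means of 209 and 226, and of 469 and 496) and were not called.

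The list had 4 further calls. GRIA1 (ENSDARG00000021352), an AMPA receptor subunit, had 1.95, 3.1 and 0 against 207, 343 and 186, and its call (log2 difference -7.07, SE 1.71, adjusted p = 0.022) ended without any 1 of the *nrxn3* full libraries. A second identifier named GRIA1 (ENSDARG00000032714) had means of 130 and 255 and an adjusted p of 0.18. GRIK3, a further kainate receptor subunit, was higher (0.53, adjusted p = 0.047), and GRM6 and the vesicular glutamate transporter SLC17A8 were lower (-1.10 and -2.42, adjusted p = 0.043 for each). The GRM6 call was at ENSDARG00000025671, with means of 48.5 and 104. A second identifier named GRM6 (ENSDARG00000017742) had means of 563 and 517 and was not called (log2 difference 0.12, adjusted p = 0.88). The sums of both GRM6 identifiers overlapped between the lines. The summed level of the list was 253427 to 260675 in *nrxn3* full and 240564 to 252244 in *nrxn3* tmr, a ratio of means of 1.04.

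Inhibitory synapse genes had 2 calls of 49 and a median of 0.12 on the log2 scale. The GABA receptor subunit GABRR1 had 210, 134 and 128 normalised counts in *nrxn3* full and 81.5, 72.4 and 75.9 in *nrxn3* tmr (log2 difference 1.04, SE 0.23, adjusted p = 0.011), a call that ended without *nrxn3* full replicate 2. GABRR2 was lower by -0.54 on the log2 scale (SE 0.13, adjusted p = 0.022), a call that ended without *nrxn3* full replicate 2 or 4 or *nrxn3* tmr replicate 3. Second identifiers named GABRR1 (means of 143 and 174) and GABRR2 (means of 96.5 and 80.8) went the other way and were not called. The sums of both identifiers overlapped between the lines for GABRR1 and did not for GABRR2. None of 65 vesicle release genes and none of 67 voltage-gated channel genes was called by edgeR, with 2 and 5 at an unadjusted p under 0.05 and 1 and 1 called by the DESeq2 Wald test. Their medians were both 0.05 on the log2 scale. The pan-neuronal list, 19 genes that mark neurons at large, had no call by edgeR or DESeq2, 1 gene at an unadjusted p under 0.05 and a range of log2 differences from -0.17 to 0.13.

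Protocadherins, adhesion proteins whose clustered members give neurons distinct surface identities, had the highest share of calls among the 35 lists. Of 42 tested, 5 were higher and 6 lower in *nrxn3* full (26.2%), and the list median was 0.05 on the log2 scale. *pcdh1a6* had 551, 501 and 510 normalised counts in *nrxn3* full and 23.9, 28.3 and 26.0 in *nrxn3* tmr (log2 difference 4.31, SE 0.79, adjusted p = 0.0029). *pcdh1g13* went the other way, at 116, 121 and 108 against 743, 782 and 771 (log2 difference -2.73, SE 0.29, adjusted p = 6.0e-06). The *nrxn3* full libraries lay below the 211 to 796 of the other 18 for *pcdh1g13*.

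The remaining protocadherin calls went in both directions, also within the pcdh1a and pcdh2ab names. *pcdh1a3* (2.66, adjusted p = 0.013), *pcdh2aa15* (2.63, adjusted p = 0.0079), *pcdh2ab1* (1.21, adjusted p = 0.0051) and PCDH15 (0.36, adjusted p = 0.038) were higher on the log2 scale. *pcdh1g22* (-1.56, adjusted p = 0.0017), *pcdh2ab12* (-1.03, adjusted p = 0.036), *pcdh1gb9* (-0.92, adjusted p = 0.033), *pcdh1a4* (-0.80, adjusted p = 0.030) and PCDH20 (-0.45, adjusted p = 0.025) were lower. The summed level was 75251 to 79659 in *nrxn3* full and 72499 to 74346 in *nrxn3* tmr. Called genes thus differed by up to 4.31 on the log2 scale while the sums had a ratio of means of 1.05, and near-identical copies in a cluster can share reads.

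Neuropeptides gave 3 rises and 1 fall among 49, with a median of 0.01 on the log2 scale. *tac3b*, a tachykinin, had 22.5, 24.8 and 53.0 normalised counts in *nrxn3* full and no read in *nrxn3* tmr, and its call held without each library (adjusted p = 0.014). NPY, an appetite peptide, had 4301, 4274 and 4846 against 3227, 2815 and 3264 (log2 difference 0.53, SE 0.14, adjusted p = 0.031), and VIP 1447, 1423 and 1284 against 1027, 921 and 1098 (log2 difference 0.45, SE 0.12, adjusted p = 0.033). The NPY call ended without any 1 of the 6 libraries, and the VIP call without *nrxn3* full replicate 2 or 3 or *nrxn3* tmr replicate 3 or 4. *crha*, a corticotropin-releasing hormone and the only call of 19 stress axis genes, was lower at 28.3, 27.9 and 19.5 against 83.6, 52.4 and 58.9 (log2 difference -1.36, SE 0.36, adjusted p = 0.033), a call lost without any *nrxn3* full replicate or without *nrxn3* tmr replicate 3 or 5. Of 46 monoamine and cholinergic genes, the serotonin receptor gene HTR2B alone was called, at 69.3, 61.0 and 56.3 against 10.9, 7.34 and 4.99 (log2 difference 2.99, SE 0.56, adjusted p = 0.0033).

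JUNB was the only call of 26 immediate early genes, whose median was 0.14 on the log2 scale. BMAL1, the activator of the circadian loop, was the only call of 41 clock genes, at 173, 170 and 274 normalised counts in *nrxn3* full and 413, 689 and 836 in *nrxn3* tmr (log2 difference -1.65, SE 0.39, adjusted p = 0.019). That call ended without *nrxn3* full replicate 2 or 3 or *nrxn3* tmr replicate 4 or 5, and a second BMAL1 identifier had means of 1616 and 1811 (adjusted p = 0.92). The summed level of the clock genes split each line, at 173761 and 160847 in *nrxn3* full replicates 2 and 3 and 91462 in replicate 4, and at 169641 in *nrxn3* tmr replicate 3 and 92880 and 91086 in replicates 4 and 5. The summed level of the stress axis genes split the same libraries. It was 27647 and 26142 in *nrxn3* full replicates 2 and 3 and 13264 in replicate 4. In *nrxn3* tmr it was 27248 in replicate 3 and 15290 and 14608 in replicates 4 and 5. The time of day of each dissection is not given, and its part in the BMAL1 and *crha* values was not tested.

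Of 61 lysosome genes, 5 were called and these 5 were lower in *nrxn3* full (2.45% of all genes were), with a list median of -0.06 on the log2 scale. ATP6V0A2, a membrane subunit of the vacuolar proton pump, had 181, 164 and 166 normalised counts in *nrxn3* full and 315, 371 and 366 in *nrxn3* tmr (log2 difference -1.04, SE 0.10, adjusted p = 3.0e-06). MCOLN1, a lysosomal calcium channel, had 1105, 1069 and 849 against 1586, 1600 and 1617 (log2 difference -0.67, SE 0.10, adjusted p = 3.0e-04). For both genes the *nrxn3* full libraries lay below all 18 other libraries, which ran from 284 to 370 and from 1206 to 1652. Second identifiers with these symbols were not called, with log2 differences of -0.15 for ATP6V0A2 (means of 1237 and 1373) and 0.23 for MCOLN1 (means of 538 and 459).

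The other lysosome calls were all or none. CLN8, which serves the export of lysosomal enzymes and is one of the silent genes of chromosome 17, had 1.95, 0 and 0 normalised counts against 52.1, 61.9 and 65.9 (log2 difference -6.23, SE 0.61, adjusted p = 8.1e-06). ATP6V1B2, a further pump subunit, had means of 3.09 and 607 (log2 difference -7.56, SE 1.65, adjusted p = 0.011), and CTSO is described above. A second identifier named ATP6V1B2 (ENSDARG00000043465) had means of 173 and 183 and was not called (log2 difference -0.08). The summed level of the list overlapped between the lines, at 265169 to 274698 in *nrxn3* full and 271493 to 280590 in *nrxn3* tmr.

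Among genes of protein folding, 2 of 29 ER genes were lower in *nrxn3* full and 1 of 28 heat shock chaperones was higher. *ern1*, the sensor IRE1 of the unfolded protein response, had 2795, 2800 and 2821 normalised counts in *nrxn3* full and 4228, 4728 and 4304 in *nrxn3* tmr (log2 difference -0.66, SE 0.13, adjusted p = 0.0044). Both lines stood above wt, at 920 ± 46.9 (SD, n = 3). ASNS, asparagine synthetase, was lower by -0.55 on the log2 scale (SE 0.15, adjusted p = 0.042), and the small heat shock protein HSPB1 had 815, 1013 and 929 against 481, 544 and 487 (log2 difference 0.87, SE 0.21, adjusted p = 0.022). The ASNS and HSPB1 calls each ended without 4 or more of the libraries. The summed level of the ER list did not overlap, at 75796 to 80898 in *nrxn3* full and 81173 to 90052 in *nrxn3* tmr.

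Energy and ribosome genes were mostly close between the lines. Of 98 nuclear genes of oxidative phosphorylation, SDHD, an anchor subunit of succinate dehydrogenase, was higher at 1281, 1458 and 1568 normalised counts against 760, 875 and 773 (log2 difference 0.84, SE 0.15, adjusted p = 0.0018), while a second SDHD identifier had means of 2279 and 2224 and was not called. NDUFAF7, an assembly factor of complex I that lies 35 placed genes from *nrxn3b*, was lower at 246, 188 and 275 against 406, 377 and 398 (log2 difference -0.74, SE 0.14, adjusted p = 0.0047). Of 13 mitochondrial transcripts MT-ND6 was higher by 0.62 (SE 0.15, adjusted p = 0.023), a call that ended without *nrxn3* full replicate 2 or 4 or *nrxn3* tmr replicate 3 or 5. Of 95 ribosomal protein genes 3 were called: *rpl32* and, lower in *nrxn3* full, RPLP1 and RPL13A. RPLP1 had 7565, 6781 and 7094 against 10134, 9673 and 9489 (log2 difference -0.45, SE 0.10, adjusted p = 0.0098). RPL13A (ENSDARG00000044093) is one of the all-or-none genes of chromosome 17 and had 5.86, 5.17 and 4.33 against 268, 196 and 228 (log2 difference -5.46, SE 0.51, adjusted p = 1.2e-06).

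PMVK, an enzyme of sterol synthesis, was the only call of 34 cholesterol genes, at 67.4, 41.3 and 60.6 normalised counts in *nrxn3* full and 0, 1.05 and 0.998 in *nrxn3* tmr (log2 difference 6.11, SE 1.11, adjusted p = 0.0035). Among 173 zinc finger genes named *znf970* and above, 3 were higher and 5 lower in *nrxn3* full. *znf1024* had 168, 222 and 184 against 0, 25.2 and 0 (log2 difference 4.49, SE 0.87, adjusted p = 0.0042). *znf1094* had 6.84, 12.4 and 2.16 against 353, 432 and 166, and its call ended without any 1 of the *nrxn3* full libraries. The family list median was -0.12 on the log2 scale, and 48 of its 173 genes had an unadjusted p under 0.05, against 3870 of all 23641.

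Of 25 astroglial genes, 2 were higher and 1 was lower in *nrxn3* full. The glutamate transporter SLC1A2 (0.18 on the log2 scale, SE 0.05, adjusted p = 0.043) and CYP19A1, an aromatase (7.31, SE 1.89, adjusted p = 0.040), were higher, and both calls ended without any 1 of the 6 libraries. The symbol CYP19A1 does not say which aromatase copy this is. *her4.1*, a Notch target in radial glia, had 311, 330 and 281 normalised counts in *nrxn3* full and 871, 773 and 725 in *nrxn3* tmr, against 1120 ± 244 in wt (SD, n = 3). Its log2 difference was -1.36 (SE 0.20, adjusted p = 2.7e-04), and the *nrxn3* full libraries lay below the 567 to 1402 of the 18 others. The microglial and macrophage marker *cd68* had 8.79, 22.7 and 10.8 against 578, 862 and 921 (log2 difference -5.79, SE 0.38, adjusted p = 1.2e-08). No other library of the series was below 167 for *cd68*.

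The rest of the microglial list did not follow *cd68*. Besides *cd68*, only the chemokine gene *ccl34b.1* was called of 28 (-0.84, SE 0.23, adjusted p = 0.046, a call lost without 5 of the 6 libraries), the list median was -0.07 on the log2 scale, and the receptor *csf1ra* had 303, 260 and 419 against 418, 509 and 510. Of 35 endothelial and meningeal genes, MRC1, the mannose receptor, was higher at 1282, 1213 and 1460 against 780, 721 and 760 (log2 difference 0.81, SE 0.13, adjusted p = 8.1e-04). The receptor tyrosine kinase gene *tek* was lower (-0.85, SE 0.22, adjusted p = 0.031), a call that ended without 5 of the 6 libraries.

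The tissue was brain by its markers. *elavl3* of neurons had 23778 to 32227 normalised counts in the 6 libraries, *gfap* of astroglia 2226 to 5567 and *mbpa* of myelin 159993 to 287330. The lens crystallin genes *cryaa* and *crygm2d1* had no read. The lens and cornea list as a whole did have counts, with sums of 3426 to 12168 in *nrxn3* full and 4875 to 12779 in *nrxn3* tmr. Of its 11 genes tested, 2 were called (18.2%), both higher in *nrxn3* full, and the list median was -0.22 on the log2 scale. In bulk tissue fewer cells of a type and less RNA per cell cannot be told apart.

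None of 21 oligodendrocyte and myelin genes was called by edgeR or DESeq2, 2 had an unadjusted p under 0.05, and the median was -0.12 on the log2 scale. Their summed level nevertheless did not overlap, at 240646, 243643 and 278681 in *nrxn3* full and 293618, 347410 and 388632 in *nrxn3* tmr, against 259951 to 516012 in wt. The sum is mostly *mbpa*, with means of 173374 and 248500 (log2 difference -0.52, SE 0.25, adjusted p = 0.30). The myelin gene *plp1b* did not overlap either, at 28040, 27301 and 29146 against 34549, 38903 and 42032. The groups overlapped for *mpz*, at 2073, 2412 and 2044 against 2598, 1655 and 2746. Summed levels did not overlap in 7 of the 35 lists, while 24.5% of single genes did not overlap either.

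**Figure D5:**
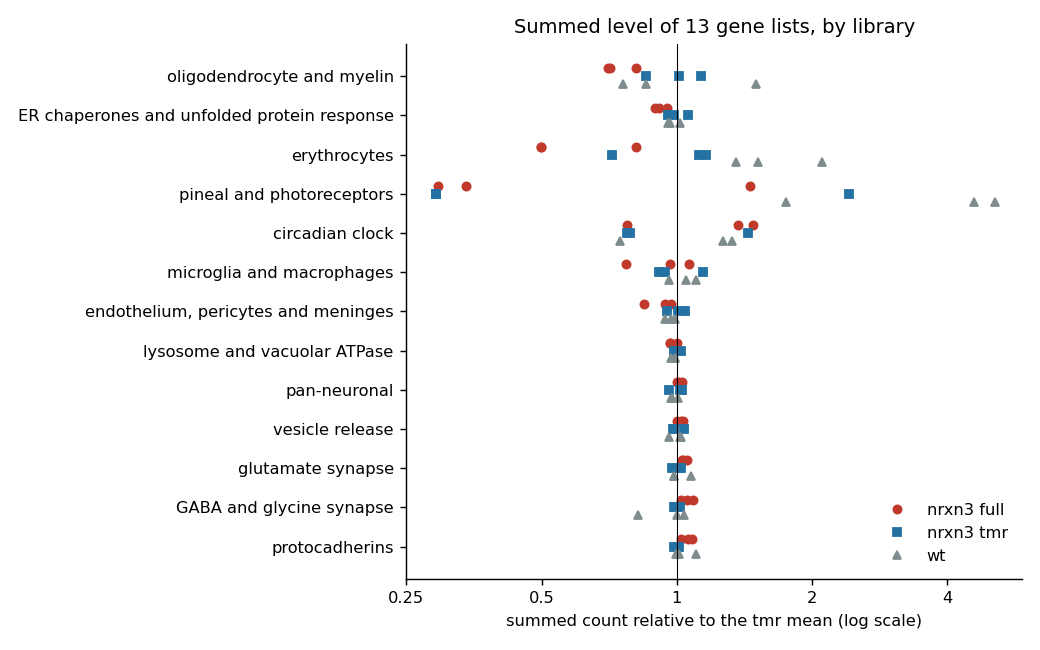
Summed normalised count of 13 gene lists in each library of *nrxn3* full, *nrxn3* tmr and wt, divided by the mean of the 3 tmr libraries (x axis, log scale). The myelin list is lower in *nrxn3* full without overlap at 0.741 of the tmr mean, the photoreceptor and clock lists split the libraries of each line, and the neuronal lists lie close to 1.

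Photoreceptor and pineal genes varied between libraries of each line. Their summed level was 32138 in *nrxn3* full replicate 3 and 53464 in *nrxn3* tmr replicate 4, and 6419 to 7492 in the 4 other libraries. None of 54 was called by edgeR, 1 was by DESeq2, and 2 had an unadjusted p under 0.05. Erythrocyte genes ran from 6822 to 11083 in *nrxn3* full and from 9815 to 15897 in *nrxn3* tmr, with none of 7 called by either tool and none at an unadjusted p under 0.05. No pituitary, ependymal, muscle, cerebellar, proliferation or interferon gene was called by edgeR, and their lists had 1, 1, 0, 3, 6 and 6 genes at an unadjusted p under 0.05 and 1, 0, 0, 1, 2 and 0 calls by DESeq2. The part of these marker levels in the other results was not tested.

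For 918 of the 1127 called genes, neither the 3 full nor the 3 tmr libraries lay outside the range of wt and the other lines. In 154 called genes only *nrxn3* full lay outside it, in 51 only *nrxn3* tmr and in 4 both. Over all genes tested these counts were 381, 169 and 16. *nrxn3a*, *nrxn3b*, TSHR, MARCKS, *cd68*, *her4.1*, ATP6V0A2 and MCOLN1 belong to the 154, and *malat1*, GRM5 and DLST to the 51. The wt mean was nearer to the *nrxn3* tmr mean than to the *nrxn3* full mean, on a log2 scale of count + 1, for 578 called genes (51.3%). On chromosome 17 this was so for 51 of 78 (65.4%) and on chromosome 20 for 22 of 33 (66.7%), against 276 of 568 (48.6%) on the other 23 chromosomes.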

How the data were processed

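Poly(A) RNA of adult whole brains was sequenced from stranded libraries. The submitters' processing notes name Trimmomatic 0.39, STAR 2.7.11b, FastQC 0.11.9, MultiQC 1.9 and the build GRCz11, and the authors deposited raw read counts per gene from STAR for 24 libraries. The sources used here do not give the strand column kept. Overlapping and near-identical genes are therefore uncertain, and so is each identifier that shares its symbol. All 37241 rows named a gene.

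Counts were divided by DESeq2 (1.42.0) size factors. edgeR 4.0.16 in R 4.3.3 fitted a robust quasi-likelihood model with 1 coefficient per genotype over all 24 libraries, which share the estimate of spread, and tested *nrxn3* full minus *nrxn3* tmr with Benjamini-Hochberg adjustment over all 23641 genes. The SE is the absolute log2 difference divided by the square root of F. Tables and exact intervals were made with Python 3.11.15, pandas 2.3.3, numpy 2.4.6 and scipy 1.17.1, and the scripts were tested on simulated data. In these, the test called 12 of 50 genes changed 1.5-fold and 29 of 50 changed 2-fold. Lists without a call can therefore hold differences of that size. A fold against a group without reads uses a floor of 3 counts over the 3 libraries. Intervals (95%) and floors cover counting error only.

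Symbols came from RefSeq's GRCz12tu table, matched by Ensembl identifier, and 20281 genes tested had a symbol. Chromosome and gene order were looked up in that table by symbol or synonym, where this gave a single place. Identifiers that share a symbol were therefore given the same place. ENSDARG00000043746, given as NRXN3 there, was taken as *nrxn3a*. Capital symbols were matched to list entries without their copy letter, a rule set after values were seen.

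The comparison and the gene lists were chosen with earlier results of these data known. Genes were named by rule: the neurexins, the largest differences of called genes with a symbol (over all and among graded genes), the most abundant called genes, up to 4 called members of a list by adjusted p, and called neighbours. The largest differences were taken only from genes whose groups did not overlap. Those over all also needed a mean of at least 50 normalised counts over the 6 libraries. The genes of chromosome 17 beyond the neighbours, the further protocadherins and list members, second copies, the windows, the distance to wt and the recounts on chromosome 17 were chosen after seeing the data. Alternatives tried were a DESeq2 Wald test, TMM factors, other filters, a fold threshold, the 6 *nrxn3* libraries alone, a replicate block and leaving out each library.

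Libraries with the same number did not deviate together (correlations of 0.019 for number 3 and -0.0604 for number 4 over 17363 genes), so that the numbers were not taken as pairs. Some genes and lines are not reported here.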

Additional observations from a re-analysis of the deposited data

How the results depend on the processing

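*nrxn3a* and *nrxn3b* were called under every alternative run, and no result reversed its direction. The 1127 calls became 1828 with the DESeq2 Wald test and 493 against a fold of 1.5. They ran from 655 to 901 without 1 library. The 566 graded calls became 939 and 112 and ran from 310 to 406. The 8 called neighbours became 2 against a fold of 1.5, 5 with 10 and 25 with 40 genes on either side, and ran from 3 to 6. The 352 all-or-none genes became 171 with the higher line at 200 or more and ran from 368 to 418. The 78 calls on chromosome 17, a count chosen after seeing the data, became 44 against a fold of 1.5 and ran from 47 to 64. The cause of the moves between libraries was not tested.

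With the replicate number as a block, 810 genes were called, 743 of them among the 1127, and the called neighbours fell to 4. The numbers share only a label, as far as the correlations show. With TMM factors there were 1123 calls, without a filter 964 and with the 6 *nrxn3* libraries alone 1029, of which 675 were among the 1127. Of the named genes, 59 of 110 called ones were also called without each library. Where counts were few, as in genes off in a line, the value of the lower line rests on a handful of reads.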
